A study of Homo sapiens with 50 samples.

Results

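The last step of a lifespan screen in human fibroblasts was examined here, the change in hairpin abundance from population doubling 55 (PD55) to population doubling 60 (PD60), the time at which the cultures had become senescent. The cells were IMR90, fibroblasts from human lung that divide a limited number of times, grown at 3% oxygen and infected at a multiplicity of infection of 0.3 with pools of lentiviruses. Each virus carries a gene for 1 short hairpin RNA (shRNA), which lowers the expression of its target through RNA interference and stays in the genome of the infected cell and its descendants. All plates of both groups were infected, and PD55 and PD60 differ in the labels by the number of doublings alone. For each of the 5 population doublings sampled there were 10 plates, each infected with a pair of the 5 initial virus pools, and the deposited counts give 1 pooled column per population doubling. The values below therefore have no replicates, no test between PD55 and PD60 was possible, and the spread between plates is not known. Members were the hairpins with at least 10 sequence tags at PD55 or at PD60, where a tag is a sequenced read assigned to a hairpin. They numbered 1795 of the 3443 hairpins in the table, or 52.1%, and 604 genes were named alone by at least 1 of them.

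Replicative senescence is the lasting arrest that normal cells enter after many divisions, and it is held in place mainly by the p16 and RB1 pathway and by DNA damage signalling from short telomeres. A hairpin that lowers a gene needed for the arrest lets its cell go on dividing, so its DNA makes up more of the culture, while a hairpin against a gene needed for growth is diluted. A culture can also be filled by the offspring of a few cells for reasons unrelated to the hairpin, so the share of a single hairpin in a pooled column is a measure of clonal abundance, and the several hairpins to 1 gene have to be read side by side.

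The columns held 11505688 tags at PD55 and 8270745 at PD60, and abundances are given as a percentage of the column's tags or as CPM, tags scaled to a common column size. Ratios are PD60 over PD55 on this scale. Their 95% intervals are exact binomial intervals that cover counting error only, since PCR copies of a tag were not marked as such. Of the members, 960 had at least 10 tags in both columns, 811 at PD55 only and 24 at PD60 only. At PD60, 252 members had no tag, for which a count of 0 allows up to 3 tags, and at PD55 this held for 9. The non-targeting control, a hairpin with no human target, had 4562, 1775, 669, 133 and 39 tags in the columns from PD40 to PD60, and was 2.45-fold lower at PD60 than at PD55 (95% interval 1.70 to 3.60), a ratio above 1 with TMM or DESeq2's factors.

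Most hairpins lost ground in the last interval and a few gained much. Relative to the column totals, 107 members were over 2-fold higher at PD60 (5.96% of members) and 1481 were over 2-fold lower (82.5%), while 207 lay within 2-fold. From PD50 to PD55, 84.8% of the hairpins that met the minimum there were over 2-fold lower. The general loss was thus not particular to the last interval. The higher hairpins went from 8.82% of all tags to 55.2%, and the lower ones from 49.7% to 10.8%. Over 10-fold differences were found upward in 28 members (1.56%) and downward in 585 (32.6%), with hairpins at 0 counted at the floor of 3 tags. The median log2 fold change of the members, with 1 CPM added to both values, was -1.82 (quartiles -2.78 and -0.97), and it was -1.74 with zeros at the floor. Since each column sums to a fixed total, the balance of higher and lower depends on the scaling. Of the hairpins called in either direction 6.74% were higher with column totals, 27.6% with TMM factors and 43.6% with DESeq2's size factors, which multiply every ratio by 3.72 and by 5.43. The order of the hairpins by ratio is the same under each scaling, and all ratios below use column totals. On that scale the median member was 6.13-fold lower, so a hairpin that fell less than this lost less than the median member. One that fell by less than 5.43-fold lies above 1 with DESeq2's size factors, and by less than 3.72-fold with TMM factors as well.

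The last interval moved more of the culture than the earlier ones did, set side by side without a test because neighbouring intervals share a column. The percentage of tags that would have to pass from one hairpin to another to turn a column into the next was 34.5 from PD40 to PD45, 31.6 from PD45 to PD50, 35.7 from PD50 to PD55 and 50.8 from PD55 to PD60. Leading hairpins, here those with at least 1000 CPM, became over 10-fold lower in 2 of 172 cases in the first interval, 0 of 203 in the next, 3 of 164 in the third and 18 of 101 in the last. Among hairpins leading at the later column, those over 10-fold higher numbered 3 of 203, 0 of 164, 0 of 101 and 15 of 78. The highest ratio of a leading hairpin was 16.9, 7.68, 6.82 and 437 in the same order. A culture that doubles 5 times grows 32-fold. The ratios compare shares of the culture, so that growth is already divided out of them and 32 is only a mark, not a limit. A ratio above 32 was seen in 8 members in the last interval (0.446%), 7 of which were leading at PD60. No leading hairpin of the 3 earlier intervals had such a ratio.

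The top of the ranking was exchanged. The 10 most abundant hairpins of PD55 held 48.1% of its tags and 25.03% of those at PD60, and the 10 most abundant of PD60 held 51.8% of its tags against 24.4% at PD55. Only 2 hairpins were in both top 10 lists, those against NAP1L4 and TSSK6. The top 30 lists shared 19 hairpins and the top 50 lists 31. Diversity at equal depth, as the exponential of Shannon's entropy, was that of an even mix of 81.0 hairpins at PD55 and of 51.1 at PD60, and 2713 and 1924 hairpins were detected at that depth. In all, 122 hairpins were leading in at least 1 of the columns, 57 of them in both, 44 at PD55 only and 21 at PD60 only. Lowest among the leading at PD55 was a hairpin with 1080 CPM and the next below had 975.7, and at PD60 the corresponding values were 1007 and 991.4.

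At PD55 the culture was led by a hairpin against NAP1L4, a histone chaperone of the nucleosome assembly protein family. Its tags were 39553, 138334, 485834, 1490079 and 578351 from PD40 to PD60, so that it held 12.95% of the PD55 column and 6.99% of the PD60 column (ratio 0.540, 95% interval 0.538 to 0.542), and it went from the 1st to the 3rd rank. A hairpin against TSSK6, a testis kinase that phosphorylates histones, had 10396, 58798, 154128, 742206 and 719862 tags and moved from the 2nd rank to the 1st (ratio 1.35). Both leaders stayed within 2-fold in the last interval after growing in every earlier one. HMGB1 and IKBKE were the other two targets in the PD55 top 10 that stayed within 2-fold. HMGB1, a chromatin protein that also acts as a danger signal outside cells, went from 376753 to 163873 tags (1.65-fold lower), and IKBKE, a kinase of innate immune and NF-kappaB signalling, from 333739 to 122172 in hairpin TRCN0000010034 (1.96-fold lower).

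In the PD55 top 10, 6 hairpins were over 2-fold lower at PD60, and 5 of them are described here. The hairpin against SMC1B, a cohesin subunit of meiosis, had 25808, 100718, 175274, 498115 and 161060 tags and fell 2.22-fold. PHC1, a subunit of Polycomb repressive complex 1, had 87434, 291409, 402210, 428789 and 74675 tags and its hairpin fell 4.13-fold. HIST2H2AB, a histone H2A gene, had 17540, 50920, 174557, 388360 and 59021 tags and fell 4.73-fold. SMC1B and HIST2H2AB had gained share in each earlier column and turned in the last interval, and PHC1 had passed its peak share at PD50. MAF, a basic leucine zipper transcription factor, had 10778, 132139, 338224, 296012 and 47188 tags in hairpin TRCN0000000258, which fell 4.51-fold. SMUG1, a DNA glycosylase that removes uracil, had 35137, 145801, 222654, 284526 and 21609 tags and fell 9.47-fold, from the 10th rank to the 47th, the deepest loss of these 5. With DESeq2's size factors SMC1B, PHC1, HIST2H2AB and this MAF hairpin lay above 1 instead of below it, and SMC1B did so with TMM factors as well, whereas SMUG1 stayed lower under all scalings tried.

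A collapse, meaning a leading PD55 hairpin over 10-fold lower at PD60, was seen in 18 of 101 hairpins, or 17.8% beside 32.6% of all members. Together the 18 held 0.842%, 2.63%, 5.42% and 5.33% of the tags from PD40 to PD55 and 0.249% at PD60. They were chosen by their PD55 and PD60 values, so the counts of the last interval describe them and test nothing. The number depends on the scaling, and was 7 with TMM factors, 6 with DESeq2's size factors and 10 with totals that leave out the 50 most abundant hairpins.

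The deepest falls were spread over enzymes, kinases and transcription factors. CARM1, an arginine methyltransferase and coactivator, had 2151, 12484, 25010, 39365 and 280 tags (101-fold lower, 95% interval 89.8 to 114). MAF, in its hairpin TRCN0000000254, had 3667, 4955, 23553, 37950 and 275 tags (99.2-fold lower). STK4, a kinase of the Hippo pathway, had 612, 7128, 24059, 36036 and 263 tags (98.5-fold lower). All 3 had grown at every earlier step and then went from the 39th to 45th ranks at PD55 to ranks between 335 and 345. GATA5, a zinc finger transcription factor, had 2334, 5723, 12689, 26262 and 242 tags and fell 78.0-fold. NFKB1, which encodes a subunit of NF-kappaB, had 4542, 16690, 26176, 38194 and 435 tags and fell 63.1-fold. A second TSSK6 hairpin, TRCN0000037462, had 8382, 17106, 25072, 18384 and 231 tags and fell 57.2-fold while the hairpin at the top of the PD60 ranking, against the same gene, held its share. HIST1H1B, a linker histone gene, had 3782, 21094, 62721, 19510 and 263 tags and fell 53.3-fold, after a fall that had already begun between PD50 and PD55. MCM2, a subunit of the replicative helicase, had 2147, 6493, 8559, 12473 and 257 tags and fell 34.9-fold.

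RB1, which encodes the retinoblastoma protein that blocks entry into S phase, was the most abundant target among the hairpins over 20-fold lower. Its hairpin TRCN0000040164 had 11271, 22828, 30630, 64892 and 1628 tags (28.6-fold lower, 95% interval 27.3 to 30.1). Another leading RB1 hairpin, TRCN0000010419, had 79332, 59437, 28890, 34374 and 12791 tags and stayed within 2-fold (1.93-fold lower). No RB1 hairpin was higher at PD60: of its 6 members 4 were lower and 2 within 2-fold. Other collapsed hairpins were against histone genes (HIST1H3G, 21.5-fold lower, and HIST1H4B, 11.1-fold), chromatin and transcription factors (GATA3, 15.2-fold, and TAF3, a subunit of the general factor TFIID, 10.2-fold), the acetyltransferase HAT1 (15.5-fold), the mismatch repair protein PMS2 (13.6-fold) and AOF2 (15.9-fold, TRCN0000046070). GATA3 was the largest of the collapsed by abundance, with 93966 tags at PD55 and 4435 at PD60. Just outside the 10-fold limit lay SMUG1 and the EP300 hairpin TRCN0000009883 (9.17-fold lower), and just inside it TAF3.

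A takeover, meaning a leading PD60 hairpin over 2-fold higher than at PD55, was seen in 33 of 78 hairpins, against 31 genes named alone and 1 pair of genes. Their share was 5.25%, 7.29%, 8.92% and 8.55% of tags from PD40 to PD55 and 54.0% at PD60. The 15 hairpins over 10-fold higher held 1.83%, 1.99%, 1.27% and 1.35% and then 25.1%. The 15, whose summed share had stayed below 2% in the 4 earlier columns, made up 25.1% of the PD60 column. Both sets were chosen by their PD55 and PD60 values, so the low share at PD55 and the rise describe them and test nothing. The number of takeovers was 58 with TMM factors and 67 with DESeq2's size factors. The takeover hairpins named below are higher at PD60 under all scalings tried. This was fixed in advance, since each of the other scalings raises every ratio.

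Single hairpins against HDAC2 and AOF2, which encode erasers of histone marks, were among the largest gains. HDAC2, a class I histone deacetylase, had 2451, 2453, 583, 737 and 231551 tags in hairpin TRCN0000004823. This is a ratio of 437 (95% interval 407 to 470), from 0.00641% to 2.80% of tags and from rank 487 to rank 10, the highest of all members. SIRT1, an NAD-dependent deacetylase, had 3480, 8084, 7906, 30219 and 159935 tags in TRCN0000018979 (ratio 7.36). AOF2, now named KDM1A, encodes the LSD1 demethylase of histone H3 lysine 4, and 2 of its 5 hairpins took over. TRCN0000046071 had 2913, 2138, 1622, 3858 and 111027 tags (ratio 40.03, 38.8 to 41.4), and TRCN0000046068 had 5161, 4543, 1676, 296 and 10155 (ratio 47.7, 42.5 to 53.8). The other 3 AOF2 hairpins fell, so the target held both a takeover pair and a collapse. Of the 47 members of the histone demethylase list 5 were higher and 39 lower, beside 5.96% and 82.5% of all members. The remaining hairpins to HDAC2 and SIRT1 did not share the gain: 2 further HDAC2 hairpins were members and both were lower, with 24 and 51 tags at PD55 and 0 and 2 at PD60, and 2 further SIRT1 members went from 30 to 0 and from 271 to 3 tags.

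Writers of histone marks also rose in single hairpins. SETD7, a lysine methyltransferase of histone H3 lysine 4 and other proteins, had 2891, 2268, 1534, 1088 and 80270 tags in TRCN0000078631 (ratio 103, 96.7 to 109), while its other 4 hairpins were lower and 3 of them were at 0. SETD2, which trimethylates histone H3 lysine 36, had 3475, 7006, 7499, 69351 and 275135 tags in TRCN0000003033 (ratio 5.52), and was at the 9th rank at PD60. PRDM9, a meiotic methyltransferase, had 8643, 51800, 180207, 137274 and 280379 tags (ratio 2.84, rank 8). Unlike SETD7, these 2 hairpins had been rising before, PRDM9 up to PD50 and SETD2 at each step. Among acetyltransferases, MYST2 (now KAT7) had a ratio of 2.65 and ELP3 of 2.19, and the hairpin against MYST1 (now KAT8) with the most tags stayed within 2-fold (ratio 1.46). A second leading MYST1 hairpin, TRCN0000034874, went from 32714 to 2786 tags (8.44-fold lower). Of the 55 members of the acetyltransferase list 4 were higher and 47 lower, beside 5.96% and 82.5% of all members.

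EP300, which encodes the acetyltransferase p300, had 3 leading hairpins that parted ways. TRCN0000009884 had 88949, 124367, 101992, 120137 and 291065 tags, a ratio of 3.37 (3.35 to 3.39) that brought it from the 21st rank to the 7th. TRCN0000009882 had 6163, 11498, 53944, 130397 and 19167 tags and fell 4.89-fold after rising in every earlier column, a ratio above 1 with DESeq2's size factors. TRCN0000009883, which had been the most abundant hairpin of all at PD40, had 123277, 230115, 120345, 37563 and 2944 tags and fell 9.17-fold. Of the 6 EP300 members, 1 was higher and 5 were lower, and EP300 as a whole went from 2.53% to 3.79% of tags. For CREBBP, the close relative of EP300, 1 of 5 hairpins was a member, with 1464 tags at PD55 and 85 at PD60 (12.4-fold lower).

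Genes for histones themselves supplied several of the new leaders. H2BFS, now named H2BC12L, encodes a histone H2B and had 14868, 12849, 23711, 59051 and 567652 tags (ratio 13.4, 13.3 to 13.5), going from the 32nd rank to the 4th with 6.86% of the PD60 tags. HIST4H4, a histone H4 gene, had 39437, 38421, 22199, 10752 and 300033 tags (ratio 38.8, 38.1 to 39.6) and reached the 6th rank after losing tags in every earlier column. HIST1H4A, another H4 gene, had 2737, 3741, 2449, 2305 and 29523 tags (ratio 17.8). Histone H4 hairpins as a family held 0.421% of tags at PD55 and 4.03% at PD60, and H2B hairpins 1.65% and 7.41%. The H2A family moved the other way, from 7.14% to 3.45%, and H1 and H3 hairpins went from 0.517% to 0.0607% and from 0.301% to 0.0370%. These sums rest on few hairpins: of the members 4 of 42 H2A, 3 of 34 H2B, 3 of 33 H4, 0 of 27 H1 and 0 of 25 H3 were higher, and 32, 26, 27, 22 and 21 were lower, beside 5.96% higher and 82.5% lower over all members, and the families were not tested against that share. HIST1H2AH, an H2A gene, stood at the limit of the call with a ratio of 2.00 (1.99 to 2.02).

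Regulators of the cell cycle and of growth signalling took up a further share. CDKN2A, which encodes the p16 and ARF inhibitors of division, had 87712, 113657, 147187, 126565 and 691448 tags in TRCN0000010482, a ratio of 7.60 (7.56 to 7.65). It rose from the 20th to the 2nd rank and held 8.36% of the PD60 tags. All 6 other CDKN2A hairpins were lower at PD60, by 2.62-fold to 7.67-fold, the hairpin at 0 with a bound of 3.59-fold. FRAP1, now named MTOR, is the kinase that links nutrients to growth, and its hairpin TRCN0000038678 had 813, 148, 46, 167 and 8977 tags (ratio 74.8, 64.2 to 87.7). PIK3CA, a catalytic subunit of PI3 kinase, had 3022, 15142, 49572, 30269 and 126196 tags in TRCN0000082626 (ratio 5.80), and PIK3CB had a ratio of 3.24. A second leading PIK3CA hairpin stayed within 2-fold (ratio 1.09), and 5 of the other PIK3CA members were lower. JUN, a subunit of the AP-1 transcription factor, had 11368, 4847, 1713, 1048 and 20508 tags (ratio 27.2). The IKBKE hairpin TRCN0000010035 rose from 14328 to 32207 tags (ratio 3.13). The more abundant IKBKE hairpin given above stayed within 2-fold (1.96-fold lower).

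Proteins that act on DNA, on nucleosome position or by cross-linking were the remaining larger gains. DDB1, the adaptor of a ubiquitin ligase that recognises damaged DNA, had 6474, 1623, 1266, 2254 and 72284 tags in TRCN0000082856 (ratio 44.6, 42.8 to 46.5). CTCF, the insulator protein that anchors chromatin loops, had 2366, 2599, 984, 1115 and 12060 tags (ratio 15.0). DNMT1, the maintenance DNA methyltransferase, had 19036, 21529, 14217, 2130 and 11281 tags (ratio 7.37), so that its PD60 share regained only part of what had been lost since PD45. MGMT, a DNA repair protein that removes alkyl groups, had a ratio of 4.78. PBRM1, the bromodomain subunit of the PBAF remodeller, had 7499, 16961, 8813, 8164 and 76045 tags (ratio 13.0). Among its complex partners, 1 hairpin each against ACTL6A and SMARCD1 lay near the limit with ratios of 2.12 and 2.02. A second leading ACTL6A hairpin, TRCN0000072277, fell 6.03-fold. Of the 38 members of the SWI/SNF list 4 were higher and 31 lower, beside 5.96% and 82.5% of all members. TGM2, a transglutaminase, had 3533, 4528, 1702, 14591 and 186403 tags (ratio 17.8, 17.5 to 18.1), and TGM1 a ratio of 4.00. A hairpin that matches both SMYD5 and TELO2 had 53319, 75273, 38901, 48253 and 347548 tags (ratio 10.0, 9.93 to 10.1) and reached the 5th rank, and which of these 2 genes it lowers cannot be told apart from the counts.

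Several abundant hairpins kept their share through the last interval. BRD7, a bromodomain tumour suppressor, had 58407, 155102, 212789, 259786 and 225105 tags in TRCN0000151543 (ratio 1.21), and its second leading hairpin had a ratio of 0.882. ATR, the kinase of the replication stress checkpoint, had 9465, 47043, 56901, 183420 and 149572 tags (ratio 1.13). PADI4, which converts arginine to citrulline, had 5359, 10063, 21466, 136991 and 136523 tags (ratio 1.39). Each of these targets also had hairpins that were over 5-fold lower at PD60. MEN1, a scaffold of histone H3 lysine 4 methyltransferases, differed: of its 5 members 1 was higher (ratio 3.74, from 1918 to 5151 tags), 4 were within 2-fold and 0 were lower.

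The earlier columns, which do not enter the last interval, give the history of the collapsed and the newly dominant hairpins. Of the 18 collapsed hairpins, 13 were over 2-fold higher at PD45 than at PD40, and 0 were lower, where 5.82% of the hairpins tested in that interval were higher and 63.7% lower. From PD45 to PD50, 7 were higher and 0 lower (2.51% and 74.2% of the hairpins tested). Of the 15 hairpins that later gained over 10-fold, 1 was higher and 3 were lower from PD40 to PD45, and 0 were higher and 7 lower from PD45 to PD50. All 33 takeover hairpins together were higher in 8 cases and lower in 3 from PD40 to PD45, and higher in 3 and lower in 7 from PD45 to PD50. Being abundant at PD55 was the condition for a collapse, so an earlier gain is partly fixed by the choice of those 18. A low value at PD55 favours a large rise, so the earlier course of the 15 is partly fixed in the same way. The median ratios in the first and second interval were 2.69 and 1.67 for the 18 collapsed hairpins, 0.957 and 0.535 for the 15, and 1.27 and 0.808 for the 33.

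Other hairpins to the same genes did not share the gains of the takeover hairpins. The 31 genes had 148 other hairpins, of which 92 were members. Of these 92, 6 were higher (6.52%, beside 5.96% of all members) and 78 were lower (84.8%, beside 82.5%), with a median log2 fold change of -1.85 beside -1.82. At least 1 hairpin was higher in 93 genes, and 2 or more were higher in 7 genes, namely AOF2, DDB1, FRAP1, HIST1H2AH, HIST1H4A, RET and SETD2. FRAP1 had 3 higher hairpins of 6 members, with ratios of 74.8, 8.23 and 2.48, another within 2-fold at 1.83 and 2 that were lower. DDB1 had a pair with ratios of 44.6 and 21.8 (from 293 to 4591 tags), and 2 members that were 9.49-fold and 13.1-fold lower. In HIST1H4A, HIST1H2AH and SETD2 the second higher hairpin was rare, with 23, 15 and 54 tags at PD55 and 46, 27 and 80 at PD60. The 2 RET hairpins, against a receptor tyrosine kinase, had 559 and 576 tags at PD55 and 1656 and 1697 at PD60. Their counts differed by at most 1.06-fold in all 5 columns, which makes them 1 of 10 pairs of hairpin names whose counts ran together, and they may be 1 sequence under both names.

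Where 1 gene had several leading hairpins, these often differed. Of 15 genes with at least 2, 5 had 1 higher and 1 lower, among them ACTL6A, AOF2, EP300 and TGM1. In 2 genes, MAF and SMC1B, both were lower, and in 0 genes were all of them higher. Gene means over hairpins were taken for 319 genes with at least 3 members, and the median of these means was -1.81. Only 10 were above 0, led by HDAC2 at 1.67 (SD 6.14 over 3 hairpins), FRAP1 at 1.23 (SD 3.09, 6 hairpins), DDB1 at 1.05 (SD 4.52, 4 hairpins), HIST1H4A at 0.93 (SD 2.41, 4 hairpins), UBE2B, a ubiquitin-conjugating enzyme, at 0.70 (SD 2.61, 3 hairpins) and AOF2 at 0.59 (SD 4.49, 5 hairpins). In each of these 6 the SD over hairpins was larger than the mean. With another scaling the number above 0 rose to 74 (TMM factors) or 126 (DESeq2's size factors). The lowest means were those of SIRT4, a mitochondrial sirtuin, at -4.59 (SD 0.96, 3 hairpins), TTF2 at -3.85 (SD 2.83, 3 hairpins), the linker histone gene HIST1H1D at -3.84 (SD 1.27, 4 hairpins), EED, a subunit of Polycomb repressive complex 2, at -3.78 (SD 0.67, 3 hairpins), the transcription factor SOX10 at -3.71 (SD 0.75, 3 hairpins) and ARID4A at -3.65 (SD 2.08, 3 hairpins).

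The lamin B1 control also split. LMNB1 encodes a protein of the nuclear lamina and, per the labels, its hairpins hasten senescence. TRCN0000029272 had 7808, 12770, 13478, 84423 and 154785 tags and was higher at PD60 (ratio 2.55, 2.53 to 2.57), at the 17th rank. The 3 other LMNB1 members were 2.64-fold to 5.32-fold lower, all 3 above 1 with DESeq2's size factors, and 1 hairpin was no member. Lower hairpins were thus the majority for this target, as for all members, while its most abundant hairpin gained.

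Grouped by function, 22 lists had median log2 fold changes between -2.17 and -1.02, beside -1.82 for all members. Highest was the list of transglutaminases and arginine deiminases at -1.02 (2 higher and 6 lower of 11), followed by writers of H3K4 methylation at -1.22 (4 higher and 30 lower of 42) and by replication and mitosis genes at -1.31 (3 and 12 of 19, or -0.93 with zeros at the floor). Lowest were H3K9 methylation and HP1 at -2.17 (0 and 27 of 29), histone acetyltransferases at -2.07 (4 and 47 of 55) and SWI/SNF remodellers at -2.04 (4 and 31 of 38). In the H3K9 list the hairpins with the most tags were against CBX5, an HP1 protein that fell 6.99-fold, SETDB2, which fell 6.88-fold, and CBX1, which stayed within 2-fold. The sign of a list's difference from all members held under all 8 alternatives for 5 lists. These were H3K4 methylation, arginine methyltransferases, transglutaminases with deiminases, histone chaperones and replication with mitosis. At its smallest the difference was only 0.021 for histone chaperones and 0.026 for replication with mitosis. The sign changed under at least 1 alternative for the other 17.

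Shares of tags are given next with each list's counts of higher and lower hairpins, which are to be read beside the 5.96% higher and 82.5% lower of all members. Deacetylase and sirtuin hairpins went from 0.598% to 4.86% of tags with 4 higher and 38 lower of 44, so the gain came from HDAC2 and SIRT1 while the median was -1.96. Cell cycle arrest effectors went from 4.78% to 12.4% (3 and 35 of 47), where the CDKN2A hairpin TRCN0000010482 went from 1.10% to 8.36%. That list also holds LMNB1, whose hairpins hasten senescence per the labels, and its hairpin TRCN0000029272 is among those higher. H3K36, H3K79 and H4K20 methyltransferases went from 0.658% to 3.33% (2 and 19 of 22). Nearly all of this was the SETD2 hairpin TRCN0000003033, with 0.603% and 3.33%. H3K4 methylation went from 2.29% to 5.56%, where the PRDM9 hairpin TRCN0000016807 went from 1.19% to 3.39%. Histone chaperones went from 13.7% to 7.23% (3 and 38 of 48), mostly through NAP1L4, and Polycomb hairpins from 4.64% to 1.13% (4 and 55 of 64), mostly through PHC1. PI3 kinase, AKT and mTOR hairpins went from 1.65% to 2.79% (8 and 55 of 75), and NF-kappaB hairpins from 3.80% to 2.21% (2 and 12 of 17). In the PI3 kinase list the PIK3CA hairpin TRCN0000082626 alone went from 0.263% to 1.53%. Arginine methyltransferase hairpins went from 0.452% to 0.0512%, where CARM1 had been the main holder.

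The fate of a hairpin in the last interval varied with its abundance at PD55. Of 767 members with 10 to 99 tags at PD55, 1.57% were higher, 89.2% were lower and 30.6% were at 0 at PD60. Among 560 with 100 tags to just under 1000, 5.36% were higher and 85.4% lower. Among the 334 members of the next class, up to 9847 tags, these were 6.89% and 76.4%, and for the 88 with 10000 to 93966 tags 15.9% and 62.5%. Of the 22 with over 100000 tags, 18.2% were higher, 40.9% were lower, and the median was 1.88-fold lower. In the classes before, starting from 10 to 99 tags, the median was 5.75-fold, 8.56-fold, 5.72-fold and 3.07-fold lower. From 100 tags upward the median loss thus shrank with each class. The median of the class with 10 to 99 tags is a bound, since its hairpins at 0 were counted at the floor of 3 tags. Its place in that order cannot be told. The largest rises did not run with abundance: the highest ratio was 437 among those with 100 tags to just under 1000 and 7.60 among those with over 100000. Members with under 10 tags at PD55 met the minimum only through their PD60 count, and reached at most 61 tags there.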

How the data were processed

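Genomic DNA of 50 samples was sequenced, 10 plates at each of 5 population doublings, and 20 of them belong to PD55 and PD60. The deposited table holds the authors' raw counts (tags of each hairpin, per the file headers), pooled into 1 column for each population doubling. The submitters' processing notes list Bowtie 1.0.1. How tags were assigned and plates pooled is not given in the sources used here. The table has 3443 hairpins and the design text 3455. No replicate columns were used, so nothing was tested.

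Each column was divided by its total. Members had at least 10 tags in either column. Called means a ratio over 2, with counts of 0 set to 3. Log2 fold changes used a pseudocount of 1 CPM. Gene means took hairpins naming 1 gene. Of 604 such names, 496 matched a current RefSeq symbol (GRCh38.p14), 100 a former name of 1 gene, 6 one of several genes, and 2 nothing. Hairpin sequences were not used here. Calculations used Python 3.11.15, numpy 2.4.6, pandas 2.3.3 and scipy 1.17.1, with scaling factors from edgeR 4.0.16 and DESeq2 1.42.0 in R 4.3.3, and were tested on simulated data.

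Members, thresholds and lists were chosen with earlier results of these data known. Named hairpins were taken from the 30 most abundant of each column, the 12 highest and 12 lowest ratios among leading hairpins, the controls, genes with 2 or more higher hairpins, the 6 highest and 6 lowest gene means and the 3 most abundant hairpins of each list. MGMT, MYST2, ELP3, SMARCD1, HAT1, PMS2, HIST1H4B and further hairpins of named genes were added after their values were seen. Some hairpins that the rule took are not reported here. Alternatives covered scaling, pseudocount, tag minimum, thresholds and the gene summary.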

Additional observations from a re-analysis of the deposited data

How the results depend on the processing

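Hairpins over 2-fold higher numbered 107, and 292 with TMM factors, 413 with DESeq2's size factors, 183 with totals without the 50 most abundant hairpins and 67 at a 4-fold limit. Hairpins lower numbered 1481, and 768, 534 with the TMM and DESeq2 factors and 797 at a minimum of 100 tags. The median log2 fold change of -1.82 was -1.01, -0.50 and -1.16 under the 3 scalings, -0.62 and -2.82 with pseudocounts of 10 and 0.1, and -0.83 and -2.49 with minimums of 1 and 100 tags. Collapses numbered 18, and 7, 6 and 10 under the 3 scalings, 3 with leading set at 5000 CPM and 42 at 4-fold. Takeovers numbered 33, and 58 and 67 with TMM and DESeq2 factors and 18 at 5000. Genes with a mean above 0 numbered 10, and 74, 126 and 34 under the 3 scalings, 22 with a pseudocount of 10, and 29 and 5 with minimums of 1 and 100 tags. Among 37 hairpins recomputed singly, the log2 ratios called over 2-fold that changed sign were those of SMC1B (0.74 with TMM factors, 1.29 with DESeq2's), PHC1 (0.39), HIST2H2AB (0.20) and MAF TRCN0000000258 (0.27), each with DESeq2's factors. Any other hairpin less than 5.43-fold lower also lies above 1 with those factors, among them the EP300 hairpin TRCN0000009882 and, within 2-fold in the report, NAP1L4, HMGB1, IKBKE TRCN0000010034 and RB1 TRCN0000010419. Leaving 1 hairpin of each matching pair out, added after the data were seen, moved none of these counts by over 1.5 times.

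No paired analysis was possible because the deposited table has 1 pooled column per population doubling, so that leaving out a plate was not done. Depth limits the rare hairpins: a tag at PD60 was 1 of 8270745, and members at 0 there have only a bound.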

Other observations

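Among leading PD55 hairpins the 8 with the lowest ratios ended at 231 to 435 tags at PD60. They were those against CARM1, MAF, STK4, GATA5, NFKB1, TSSK6, HIST1H1B and MCM2, and 7 of them had 231 to 280 tags at PD60 although they had started from 12473 to 39365 tags at PD55. In all, 34 hairpins had PD60 counts in that band, of which 7 were leading at PD55. No leading PD55 hairpin ended below 231 tags, while the median member had 13.0 tags at PD60. Choosing the lowest ratios favours low PD60 counts, so low and close end counts are partly fixed by the choice. These values were noticed after the data were seen and were not tested.

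The 9 members without a tag at PD55 had 10 to 18 tags at PD60, and the 24 under 10 tags at PD55 together held 0.00520% of the PD60 column.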
